A study of Homo sapiens with 6 samples.

Results

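The 10 genes described here, best known from blood vessel endothelium, were followed in RNA-seq libraries labelled A549. A549 is a line from a human lung adenocarcinoma, which is an epithelial tumour. The 10 genes were taken by symbol as the rows of ESAM, ENG, ROBO4, ICAM1, ICAM2, PECAM1, CDH5, TEK, TIE1 and KDR. These are 10 of the 16779 genes that each table lists. Values of ESAM, ENG, ROBO4 and ICAM1 in this same comparison led to the choice, so the difference between the groups is given for all 10 as a description, with no test. The groups were 3 libraries labelled RN7SK knockout (RN7SK-KO) and 3 labelled wild-type control, all labelled A549. No treatment, clone or time is given for either group. RN7SK encodes 7SK, a small nuclear RNA that keeps the transcription elongation kinase P-TEFb inactive.

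Endothelial cells line vessels and hold together through adherens and tight junctions. CDH5 (VE-cadherin), PECAM1 and ESAM are adhesion proteins of these contacts. ICAM1 and ICAM2 are ligands for leukocyte integrins, and ICAM1 is also made by epithelial cells, where inflammatory cytokines induce it. KDR is the main signalling receptor for VEGF-A, TEK and TIE1 form the angiopoietin receptor pair, ENG (endoglin) is a co-receptor for TGF-beta and BMP ligands, and ROBO4 is a vessel-type roundabout receptor. Most of these genes are commonly used as endothelial markers, and a carcinoma line would not be chosen as a model of endothelium.

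Total counts were 16018260 to 18488790 in the RN7SK-KO libraries and 18612303 to 19357144 in the control libraries. The tables hold 0 rows for RN7SK, so the knockout itself could not be checked. CDKN2A, a cell cycle inhibitor gene that A549 cells are known to lack, had 0, 1 and 2 counts in RN7SK-KO replicates 1 to 3, against 963, 1005 and 923 counts in control replicates 1 to 3. The control libraries therefore go against their label A549, the groups are named by their labels throughout, and an effect of the knockout and a difference in cell origin cannot be told apart. Of 12929 genes tested by edgeR's quasi-likelihood test with Benjamini-Hochberg adjustment, 85% passed at 0.05 (42% rose and 43% fell), so passing it does not set a gene apart. In bulk RNA, fewer cells of a type and less RNA per cell cannot be told apart either.

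The endothelial name was checked against 10 markers, 5 of which are among the 10 genes. Of the 8 markers in the tables, TIE1 had 0 counts in all 6 libraries, and PECAM1, CDH5, VWF, TEK, KDR and CD34 had at most 2.04 CPM (counts scaled by library size) in each. EGFL7, which encodes a secreted vessel factor, was the other one, and it rose to 33.5 ± 1.45 CPM in RN7SK-KO, against 18.2 ± 0.808 CPM in control libraries (SD, n = 3 each, adjusted p = 6.3e-13). CLDN5 and EMCN were not analysed here. Neither group thus carried the set of markers that defines endothelium, and the name is used only for what the genes are known for. The summed level of 10 epithelial markers was 6274 to 6390.5 CPM in RN7SK-KO libraries and 3357 to 3577 CPM in control libraries, with 5 of 7 tested rising and 2 falling. For 10 haematopoietic markers the sums were 59.0 to 63.7 CPM in RN7SK-KO and 37.1 to 41.0 CPM in control libraries (3 of 4 tested rose, 1 fell, and CD3E was among those at 0). For 10 fibroblast and mural markers they were 60.9 to 68.2 CPM in RN7SK-KO and 14.4 to 16.7 CPM in control libraries (3 of 4 tested rose, 0 fell). In both groups few genes made up most of each sum. In RN7SK-KO these were KRT8, KRT18 and KRT7 (2964, 1605 and 1277 CPM), CD68 (47.6 CPM), and ACTA2, NOTCH3 and COL1A1 (25.1, 23.4 and 12.7 CPM). EPCAM averaged 0.445 CPM in RN7SK-KO and 0.530 CPM in control libraries, and PTPRC 0.174 and 0 CPM. The sums are therefore no measure of cell type content, and the part of such cells in the results below was not tested.

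The promoters of ICAM1, ENG and ROBO4 are shown because these 3 were among the genes with the lowest RN7SK-KO values relative to control and RefSeq's table holds their starts. Each run is the 250 bases before the RefSeq start, 5′ to 3′ on the gene's strand, on GRCh38.p14. Capitals mark GGAA on either strand (TTCC on the strand shown), the core bound by ETS transcription factors. The windows are chr19:10270870-10271119 (plus strand) for ICAM1, chr9:127854659-127854908 (minus strand) for ENG and chr11:124897866-124898115 (minus strand) for ROBO4.
ICAM1: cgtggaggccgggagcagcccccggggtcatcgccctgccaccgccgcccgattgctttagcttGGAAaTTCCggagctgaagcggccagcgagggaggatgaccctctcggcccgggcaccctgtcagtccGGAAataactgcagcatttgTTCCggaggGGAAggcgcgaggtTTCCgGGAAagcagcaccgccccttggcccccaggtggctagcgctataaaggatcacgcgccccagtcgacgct
ENG: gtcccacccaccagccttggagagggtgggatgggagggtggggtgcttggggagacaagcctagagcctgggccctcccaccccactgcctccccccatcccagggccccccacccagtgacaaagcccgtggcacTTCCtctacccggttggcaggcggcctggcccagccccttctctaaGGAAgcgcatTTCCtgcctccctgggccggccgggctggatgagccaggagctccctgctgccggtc
ROBO4: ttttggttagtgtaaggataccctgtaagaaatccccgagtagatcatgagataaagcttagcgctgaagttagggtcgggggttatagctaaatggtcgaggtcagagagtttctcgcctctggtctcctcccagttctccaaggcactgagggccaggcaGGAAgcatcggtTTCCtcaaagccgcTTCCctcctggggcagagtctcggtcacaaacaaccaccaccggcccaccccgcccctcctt
The ICAM1 window held 7 matches to GGAA, and 4.23% of 27305 promoter windows held at least as many. ENG and ROBO4 held 3 each, which is the median of all windows, and 92.8% of windows held at least 1. ICAM1 also held GGAANTTCC, an NF-kB type site that reads the same on both strands, 186 bases before the start, which 0.831% of windows hold. It further held TTCNNNGAA, the STAT type site, 75 bases before the start (6.78% of windows), and TATAAA 30 bases before it (11.1%). Each of the first pair overlaps GGAA matches. None of these 3 longer motifs was in the ENG or ROBO4 window. GGGCGG, the Sp1 box, was there 2 times in ICAM1, 1 time in ROBO4 and 0 times in ENG (42.3% of windows have it), and TGANTCA, the AP-1 site, in none of the 3 (6.6%). GC content was 66% in ICAM1, 69.6% in ENG and 54.8% in ROBO4, against a median of 58%, with 23, 7 and 10 CpG against a median of 11. TEK, TIE1 and KDR were also matched and held 3, 4 and 1 GGAA.

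Among the adhesion genes, ICAM1 and ESAM had the highest levels of the 10 in both groups and were far lower in RN7SK-KO. ICAM1 (chromosome 19, 10271120 to 10286615) had 237, 220 and 178 counts in RN7SK-KO replicates 1 to 3, against 9365, 8769 and 9821 counts in control replicates 1 to 3. This is 12.7, 13.1 and 10.9 CPM in RN7SK-KO, against 505.7, 458.8 and 513.2 CPM in control libraries. All 3 RN7SK-KO libraries lay far below all control libraries, and control replicate 2 was the lowest of its group. The ratio of summed counts was 40.0-fold lower in RN7SK-KO (95% counting interval 37.0 to 43.4). The spread among the control libraries of ICAM1 was 33.6 times the variance that counting alone gives, and that among RN7SK-KO libraries was 1.84 times.

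ESAM, an immunoglobulin-type adhesion protein of tight junctions (chromosome 11, 124753126 to 124762290), had 57, 51 and 43 counts in RN7SK-KO, against 1985, 2116 and 2149 counts in control libraries. In CPM these were 3.06, 3.05 and 2.64 in RN7SK-KO, against 107.2, 110.7 and 112.3 in control libraries. The libraries within each group were close, with 0.323 times the counting variance in RN7SK-KO and 1.17 times in control, and the groups did not overlap. ESAM was 37.6-fold lower in RN7SK-KO (95% counting interval 32.0 to 44.5), so that ICAM1 and ESAM differed by ratios whose counting intervals overlap.

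CDH5, the adherens junction cadherin of endothelium (chromosome 16, 66366691 to 66404784), was low throughout. It had 4, 6 and 5 counts in RN7SK-KO and 29, 26 and 39 counts in control libraries. The mean was 0.294 ± 0.0727 CPM in RN7SK-KO and 1.65 ± 0.347 CPM in control libraries (SD, n = 3 each), a ratio 5.7-fold lower in RN7SK-KO (95% counting interval 3.28 to 10.6). The groups did not overlap, and the highest library was control replicate 3.

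PECAM1 and ICAM2 were close to the detection limit. PECAM1, a homophilic adhesion protein (chromosome 17, 64319415 to 64390860), had 2, 2 and 3 counts in RN7SK-KO, against 0, 2 and 0 counts in control libraries. Its summed ratio of RN7SK-KO to control was 3.85, with a 95% counting interval of 0.733 to 38 that spans equality. ICAM2 (chromosome 17, 64002595 to 64020633) had 0, 1 and 2 counts in RN7SK-KO and 0, 2 and 0 counts in control libraries. Both sums are at or under the floor of 3 counts, so no ratio is given. PECAM1 and ICAM2 lie 298.8 kb apart.

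Among the receptors, ENG had the largest ratio of the 10 genes. ENG (chromosome 9, 127815016 to 127854658) had 3, 6 and 3 counts in RN7SK-KO, against 961, 1018 and 1122 counts in control libraries. This is 0.161, 0.358 and 0.184 CPM in RN7SK-KO, against 51.9, 53.3 and 58.6 CPM in control libraries. ENG was near 0 in all 3 RN7SK-KO libraries and well expressed in all control libraries. The summed ratio was 235-fold lower in RN7SK-KO (95% counting interval 134.3 to 455.2). It rests on 12 counts in RN7SK-KO, and the ratio of mean CPM was 201.2-fold lower without RN7SK-KO replicate 1 and 315.9-fold lower without RN7SK-KO replicate 2, against 232.7-fold with all libraries.

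ROBO4 (chromosome 11, 124883691 to 124897865) had 1, 4 and 2 counts in RN7SK-KO and 28, 39 and 41 counts in control libraries. In CPM these were 0.0538, 0.239 and 0.123 in RN7SK-KO, against 1.51, 2.04 and 2.14 in control libraries. The groups did not overlap, and the ratio was 14-fold lower in RN7SK-KO (95% counting interval 6.58 to 35.7). The ratio of mean CPM was 13.7-fold with all libraries and 21.5-fold without RN7SK-KO replicate 2, the library with most of the RN7SK-KO counts. ROBO4 and ESAM lie 121.4 kb apart on the same chromosome.

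KDR was the receptor with the opposite direction, at very low levels. KDR (chromosome 4, 55078481 to 55125595) had 5, 8 and 19 counts in RN7SK-KO, against 4, 1 and 0 counts in control libraries. The groups did not overlap in CPM (0.269, 0.478 and 1.17 in RN7SK-KO, against 0.216, 0.0523 and 0 in control libraries), but the lowest RN7SK-KO and the highest control library were close. RN7SK-KO replicate 3 held more than both others together, and the spread among RN7SK-KO libraries was 6.06 times the counting variance. The summed ratio of RN7SK-KO to control was 7.04 (95% counting interval 2.72 to 23.1). The ratio of mean CPM was 7.14 with all libraries, 4.17 without RN7SK-KO replicate 3, 4.76 without control replicate 3 and 24.4 without control replicate 1.

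TEK, the angiopoietin receptor (chromosome 9, 27109225 to 27230174), had 5, 1 and 1 counts in RN7SK-KO and 1, 0 and 0 counts in control libraries. The ratio of RN7SK-KO to control was 7.7 with a 95% counting interval of 0.989 to 347, which spans equality. TIE1, its partner (chromosome 1, 43300982 to 43323108), had 0 counts in all 6 libraries. The 3 counts that a 0 allows correspond to 0.161 to 0.184 CPM in RN7SK-KO libraries and 0.157 to 0.162 CPM in control libraries.

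Of the 10 genes, 5 passed the low-count filter (ICAM1, ESAM, ENG, ROBO4 and CDH5) and 5 did not. A low gene passes this filter only through a group where it is higher. All 3 RN7SK-KO libraries lay below all control libraries for those 5 genes, as for 43.2% of tested genes. The ratio was at least 10-fold lower for 4 of them, as for 2.61% of tested genes by mean CPM. These shares and the next are given as background only, since the genes were chosen on this comparison. KDR, PECAM1 and TEK, all under the filter, lay above all control libraries in CPM, as did 42.4% of tested genes, on 32, 7 and 7 counts in RN7SK-KO, against 5, 2 and 1 counts in control libraries. For PECAM1 and TEK the lowest RN7SK-KO and the highest control library held the same count, 2 for PECAM1 and 1 for TEK. Only the scaling by library size separates them, so no separation is read from PECAM1 and TEK. The summed level of all 10 was 15.7 to 17.9 CPM in RN7SK-KO and 626.5 to 688.4 CPM in control libraries, of which ICAM1 made up 73% in RN7SK-KO and 74.5% in control libraries.

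**Figure D1:**
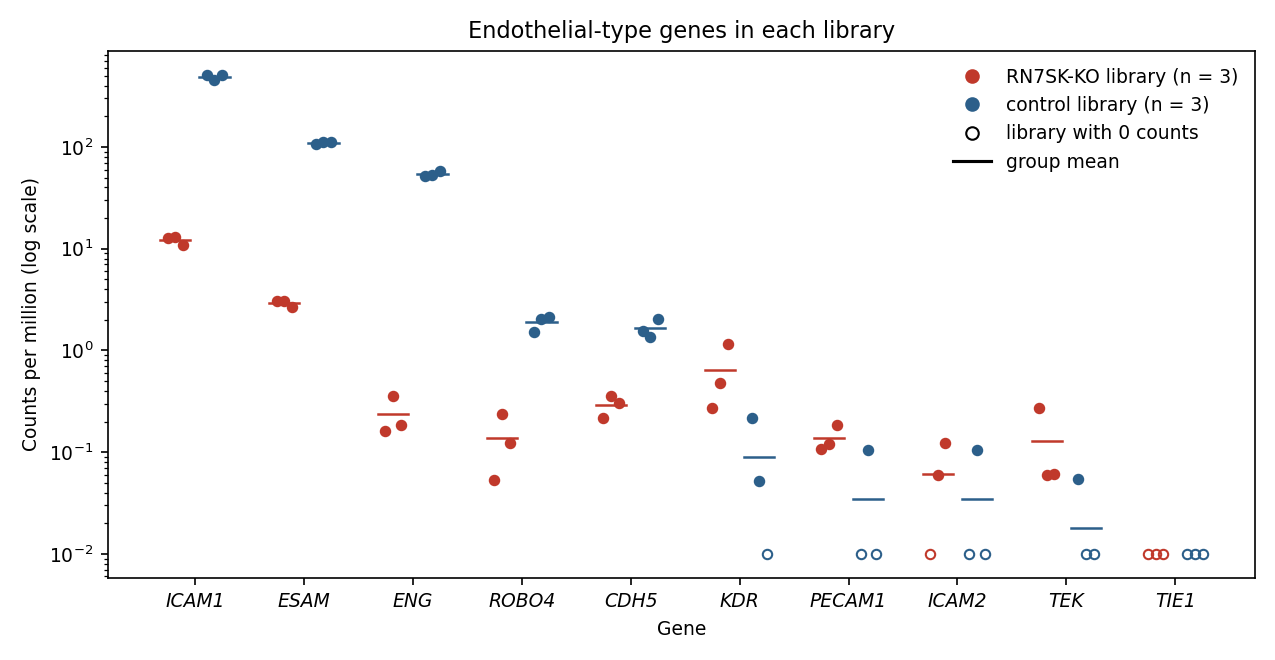
Level of each of the 10 genes in each library in CPM (vertical axis, log scale), with 3 RN7SK-KO libraries (red, left) and 3 control libraries (blue, right) per gene; lines are group means and open circles are libraries with 0 counts, drawn at the bottom of the axis. ICAM1, ESAM, ENG, ROBO4 and CDH5 are lower in every RN7SK-KO library, KDR is higher at levels near or under 1.17 CPM, and TIE1 is at 0 throughout.

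Per gene length, the order of the levels differed between the groups below the top pair. In RN7SK-KO, ICAM1 had 4.10 ± 0.369 FPKM (fragments per length and library size, deposited by the authors; mean ± SD, n = 3) and ESAM 1.58 ± 0.12 FPKM, well apart from each other and from the rest. KDR (0.109 ± 0.0809), ENG (0.071 ± 0.0323), CDH5 (0.0707 ± 0.0175), ICAM2 (0.0445 ± 0.0451), ROBO4 (0.0327 ± 0.022), TEK (0.027 ± 0.0249) and PECAM1 (0.0186 ± 0.00574) FPKM followed, where neighbours in the order differed by less than their spread. In control libraries the order was ICAM1 at 147.8 ± 8.92 FPKM, ESAM at 57.4 ± 1.18 FPKM and ENG at 15 ± 0.94 FPKM, each apart beyond its spread. ROBO4 (0.482 ± 0.0845 FPKM) and CDH5 (0.386 ± 0.0804 FPKM) came next and did not differ beyond about 1 SD. ICAM2, KDR, PECAM1 and TEK averaged 0.0223, 0.015, 0.00462 and 0.00369 FPKM, with an SD above the mean for each.

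Set among all 16779 listed genes, 48.3% had a higher mean FPKM than ICAM1 in RN7SK-KO, against 2.07% in control libraries. For ESAM these shares were 60.4% in RN7SK-KO and 6.32% in control libraries, and for ENG 79.6% in RN7SK-KO and 23.6% in control libraries. Gene lengths recovered from counts and FPKM were 2967 bases for ICAM1, 1829 for ESAM and 3279 for ENG in the RN7SK-KO tables, and 3246, 1869 and 3537 bases in the control tables. On mean FPKM the log2 ratio of RN7SK-KO to control was -5.17 for ICAM1, -5.18 for ESAM, -7.73 for ENG, -3.88 for ROBO4 and -2.45 for CDH5. On mean CPM it was -5.33, -5.24, -7.86, -3.78 and -2.49 in the same order.

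**Figure D2:**
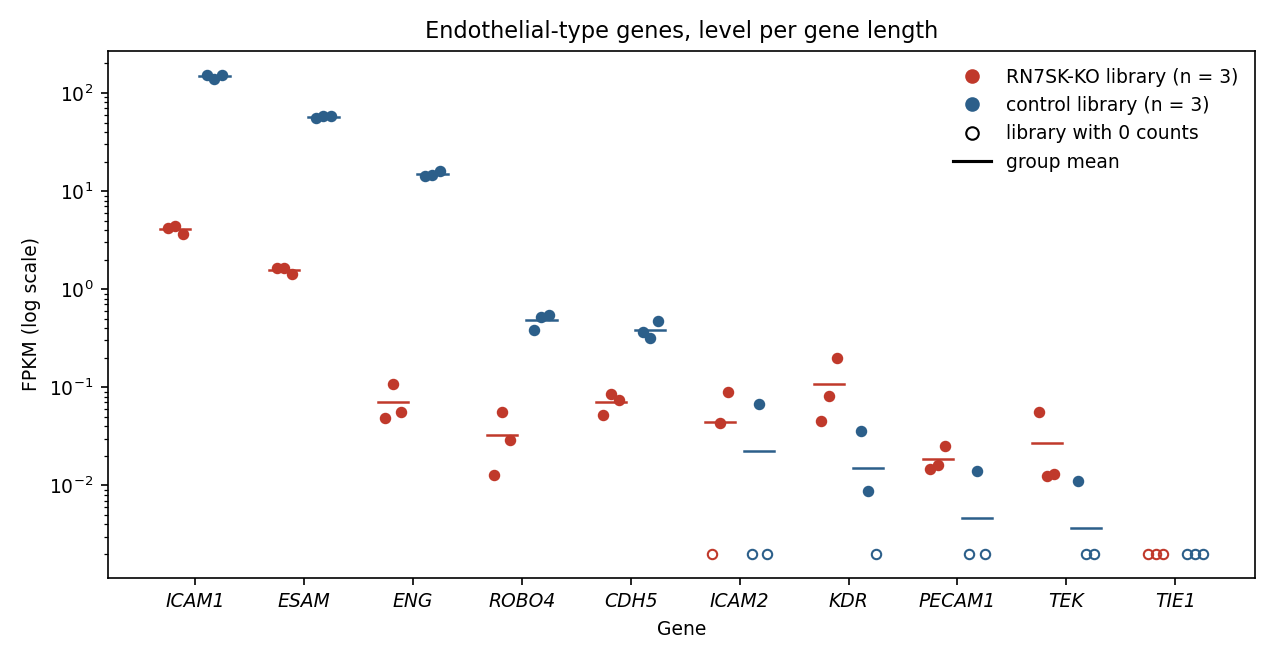
Deposited FPKM of each gene in each library (vertical axis, log scale), with 3 RN7SK-KO libraries (red, left) and 3 control libraries (blue, right) per gene; lines are group means and open circles are libraries listed at 0. ICAM1 and ESAM lead in both groups, ENG comes next in control libraries at 15 FPKM, and the other 7 genes are under 0.6 FPKM in every library.

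By profile over the 6 libraries (root mean square difference of centred log2 CPM with a prior count of 2, from the same values that chose the genes), ESAM and ICAM1 were each other's nearest gene among all tested, with a difference of 0.0878. Over libraries of 2 groups such a profile mostly holds the difference between the groups. Likeness here therefore largely repeats the ratios given above, and nothing further is drawn from it. The next nearest to ESAM was GLS2, an enzyme of glutamine breakdown (0.113), and to ICAM1 it was the zinc finger gene ZNF730 (0.0978). GLS2 and ZNF730 averaged 4.14 and 4.55 CPM in control libraries and had 0 counts in all RN7SK-KO libraries, so the prior count sets their size. ENG was nearest to ZNF426 (0.144) and TMEM40 (0.191), ROBO4 to NOG, a BMP antagonist (0.173), and CYB5R2 (0.208), and CDH5 to IZUMO4 (0.14) and ZNF234 (0.141). In RN7SK-KO, ZNF426, TMEM40, NOG, CYB5R2 and IZUMO4 averaged 0.0782, 0.177, 1.12, 0.549 and 0.486 CPM. ENG, ROBO4 and CDH5 were low there as well, so the prior count bears on these matches too.

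The genes around the 10 were compared next, because the choice did not use their values. Of 54 protein-coding genes within 100 kb, 48 were in the tables and 38 were tested, of which 10 rose, 24 fell and 4 did not pass (89.5% called). Of all tested genes, 85% were called, 42% rising and 43% falling. The median log2 fold change was -0.44, against -0.007 over all tested genes. The change of the neighbours was smaller than the ratios of ICAM1, ESAM and ENG themselves. Those genes were chosen on their values here and the neighbours were not, so no conclusion is drawn from this.

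Beside ENG, the genes went both ways: of 11 tested, 5 rose and 5 fell. FPGS, which adds glutamates to folates and lies 0.51 kb from ENG's 3′ side, fell to 58.1 ± 3.79 CPM in RN7SK-KO, against 86.1 ± 4.5 CPM in control libraries (SD, n = 3 each; log2 fold change -0.57, adjusted p = 6.88e-11). AK1, an adenylate kinase on the other side, fell by 1.23 ± 0.09 on the log2 scale (fit ± SE, adjusted p = 1.4e-12). CDK9, the P-TEFb kinase that 7SK restrains, lies 24.2 kb from ENG and rose by 0.46 ± 0.056 on the log2 scale (adjusted p = 3.27e-09). Of all tested neighbours of ENG, EEIG1 rose most, to 290.4 ± 7.46 CPM in RN7SK-KO, against 67.9 ± 2.8 CPM in control libraries (adjusted p = 7.51e-29). The near absence of ENG reads was not shared by the genes on either side of it. ENG was chosen on this value, so no conclusion is drawn from that contrast.

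Around ICAM1, 7 of 8 tested genes fell and 0 rose, with a median log2 fold change of -0.74, where 43% of all tested genes fell. On log2(FPKM + 0.1) and with recovered lengths as an offset, 5 fell and 1 rose, and MRPL4 turned. ICAM5, an ICAM of neurons that lies 3.34 kb from ICAM1, fell to 0.731 ± 0.308 CPM in RN7SK-KO, against 3.82 ± 0.827 CPM in control libraries (log2 fold change -2.4, adjusted p = 1.51e-09). ICAM3, the leukocyte ICAM, fell by 0.55 ± 0.13 in the count fit (log2 scale, adjusted p = 0.000301), but had -0.053 with the length offset. Its deposited FPKM overlapped, at 2.91, 2.73 and 3.08 in RN7SK-KO and 2.71, 2.79 and 3.37 in control libraries. ICAM4, between ICAM1 and ICAM5, had 1, 0 and 2 counts in RN7SK-KO and 5, 0 and 9 counts in control libraries and was not tested. MRPL4, a mitochondrial ribosome gene on the other side, fell by 0.49 in the count fit, log2 scale (adjusted p = 1.32e-09), but had 0.28 with the length offset (edgeR adjusted p = 3.68e-05).

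Beside ESAM, 3 of 4 tested genes fell and 1 rose, where 43% of all tested genes fell and 42% rose. NRGN, a calmodulin-binding protein gene, fell by 1.6 ± 0.12 on the log2 scale (adjusted p = 2.67e-14), and MSANTD2, which lies between ESAM and ROBO4, fell by 0.94 ± 0.08 (adjusted p = 7.6e-13). SIAE, the 1 gene that rose (log2 fold change 0.48), had -0.032 with the length offset and was also at or below 0 on FPKM. Beside ROBO4 all 3 tested genes fell, and MSANTD2, already counted beside ESAM, was among them. ROBO3, a roundabout receptor of commissural axons that lies 2.22 kb away, fell to 7.39 ± 0.222 CPM in RN7SK-KO, against 19.5 ± 2.03 CPM in control libraries (adjusted p = 4.4e-14). CCDC15 fell by 1.15 ± 0.15 on the log2 scale.

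Of the neighbours of the other genes, BEAN1 beside CDH5 fell by 2.84 ± 0.12 on the log2 scale (adjusted p = 7.33e-21). ERN1 beside ICAM2, the endoplasmic reticulum stress sensor IRE1, rose to 100.6 ± 1.72 CPM in RN7SK-KO, against 19.1 ± 3.2 CPM in control libraries (adjusted p = 1.52e-20). Beside PECAM1, MILR1 rose by 0.75 ± 0.14 and TEX2 had a log2 fold change of -0.15 (adjusted p = 0.0262), a call that was lost under DESeq2 (adjusted p = 0.0761), under library size scaling (0.062), on FPKM and without RN7SK-KO replicate 1 (0.102), RN7SK-KO replicate 3 (0.0922) or control replicate 3 (0.135). Beside TEK, IFT74 rose by 0.69 ± 0.079 and MOB3B fell by 0.96 ± 0.16. Beside TIE1, CDC20 fell by 1.46 ± 0.049 and CFAP57 did not pass (log2 fold change 0.24, adjusted p = 0.554). KDR has no protein-coding gene within 100 kb in the table used.

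**Figure D3:**
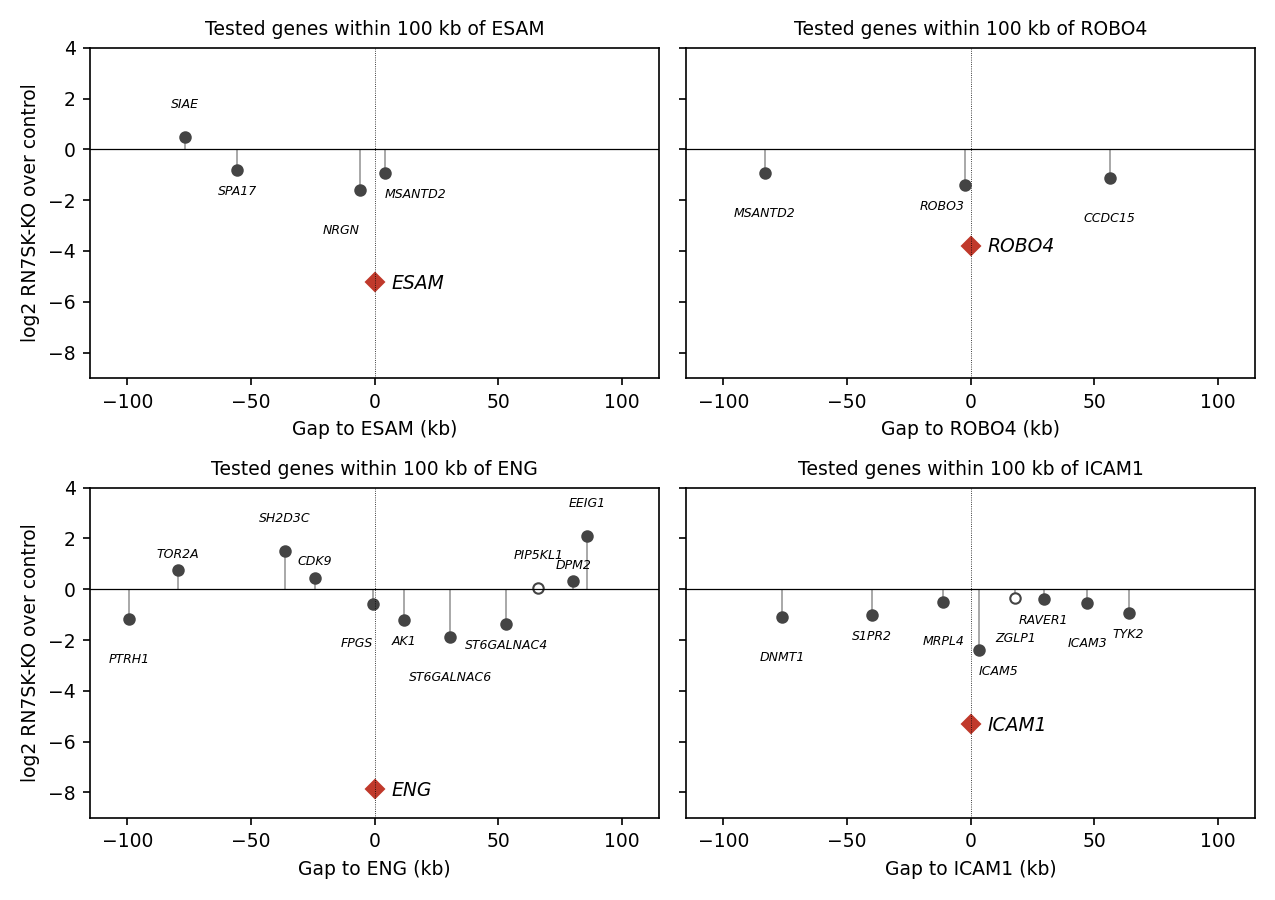
Log2 ratio of RN7SK-KO to control (vertical axis) of tested genes within 100 kb of ESAM, ROBO4, ENG and ICAM1, against the gap between each gene and that gene in kb (horizontal axis, negative towards lower coordinates); filled circles passed the test, open circles did not, and red diamonds are the 4 genes themselves by summed counts, with no test. The diamonds lie at -5.23, -3.81, -7.88 and -5.32, and every neighbour lies above its diamond. The 4 genes were chosen on these values and the neighbours were not, so this order has no meaning by itself.

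Ligands and counter-receptors of the 10 genes or of their families went both ways. Of 31 listed, 28 were in the tables and 27 were tested: 12 rose, 8 fell and 7 did not pass (74.1% called, median log2 fold change 0.29), where 85% of all tested genes were called, 42% rising and 43% falling. VEGFA, the main KDR ligand, rose to 143.3 ± 0.918 CPM in RN7SK-KO, against 50.9 ± 0.915 CPM in control libraries (adjusted p = 6.44e-24). SLIT3, of the Slit family that binds roundabout receptors, rose to 56.6 ± 0.429 CPM in RN7SK-KO, against 7.51 ± 1.16 CPM in control libraries (adjusted p = 6.87e-26). It is listed for the receptor family, and is not taken here as a ligand of ROBO4. BMP4, a BMP ligand, rose by 2.64 ± 0.12 on the log2 scale (adjusted p = 2.19e-20). INHBA, the activin subunit, fell to 0.445 ± 0.0854 CPM in RN7SK-KO, against 108.5 ± 5.06 CPM in control libraries (adjusted p = 1.17e-33). ITGAL and ITGB2, the chains of the leukocyte integrin LFA-1 that binds ICAM1, rose by 2.71 and 3.18 (log2) but stayed low, at 1.55 and 6.95 CPM in RN7SK-KO and 0.229 and 0.759 CPM in control libraries. Of the other integrin chains listed, ITGB3 fell to 2.38 ± 0.242 CPM in RN7SK-KO, against 106.5 ± 17.4 CPM in control libraries (adjusted p = 2.08e-08). ITGAV and ITGA5 fell by 0.94 and 0.97 (log2), ITGAX rose by 1.13, and ITGB1 and ITGAM did not pass. The angiopoietin gene ANGPT1 rose to 1.27 CPM in RN7SK-KO, against 0.439 CPM in control libraries, and ANGPT2 was not analysed here.

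Of the co-receptors and relatives of the receptors that were tested, more rose than fell. Of 28 listed, 22 were tested: 16 rose and 6 fell (100% called, median log2 fold change 1.22), where 42% of all tested genes rose and 43% fell. Low genes pass the filter only through a group where they are higher, which bears on this count and median. Among those that rose, ACVRL1, UNC5B, FLT4, UNC5A and PTPRB had 10, 15, 17, 33 and 33 counts over the control libraries. Among those that fell, ROBO2 had 0 counts over the RN7SK-KO libraries. NRP1, the neuropilin that acts with KDR, rose to 400.3 ± 3.92 CPM in RN7SK-KO, against 87.3 ± 3.21 CPM in control libraries (adjusted p = 4.32e-30). NRP2 and PLXND1, which act with it in semaphorin signalling, rose by 2.67 and 1.56 (log2), and FLT4, the VEGF-C receptor, rose to 6.22 CPM in RN7SK-KO, against 0.299 CPM in control libraries. PTPRB, a phosphatase of the TEK pathway, rose to 6.02 CPM in RN7SK-KO, against 0.583 CPM in control libraries.

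Receptors for TGF-beta and BMP ligands, with which ENG works, went both ways. TGFBR2 rose to 334.6 ± 5.13 CPM in RN7SK-KO, against 126.5 ± 8.89 CPM in control libraries (adjusted p = 6.98e-24), and BMPR1B rose by 2.15 ± 0.079 (adjusted p = 8.3e-23). BMPR2 fell to 50.7 ± 3.28 CPM in RN7SK-KO, against 78.0 ± 6.24 CPM in control libraries (adjusted p = 6.55e-11). BMPR1A and ACVR2A fell by 0.44 and 0.50 on the log2 scale, and TGFBR3, ACVR1 and ACVR2B rose by 0.73, 0.30 and 0.30. BAMBI, a decoy receptor of the same family, rose to 46.3 ± 1.79 CPM in RN7SK-KO, against 4.48 ± 0.263 CPM in control libraries (adjusted p = 8.52e-27). ACVRL1, the endothelial type I receptor beside ENG, was low, with 32 counts over the RN7SK-KO libraries and 10 over the control libraries. TGFBR1 fell by 0.58 on the log2 scale, but had 0.14 with the length offset and turned on FPKM too. Among the roundabout receptors, ROBO1 rose by 0.68, ROBO3 fell as above, and ROBO2 had 0 counts in RN7SK-KO, against 42, 30 and 24 counts in control libraries, which is at least 29.1-fold lower by the floor of 3 counts over the group.

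Cell surface relatives of the adhesion genes were divided. Of 33 listed, 25 were tested: 11 rose, 9 fell and 5 did not pass (80% called, median log2 fold change 0.22), or 12 and 6 on log2(FPKM + 0.1). Of all tested genes, 85% were called, 42% rising and 43% falling. MCAM, an adhesion molecule of endothelium and melanoma, fell to 10.4 ± 0.771 CPM in RN7SK-KO, against 159 ± 7.61 CPM in control libraries (adjusted p = 3.37e-32). L1CAM, a neural adhesion molecule, fell to 12.2 ± 0.922 CPM in RN7SK-KO, against 194.1 ± 6.58 CPM in control libraries (adjusted p = 4.55e-33). ALCAM rose by 1.33 ± 0.046 (adjusted p = 1.21e-23) and CEACAM6, a carcinoembryonic antigen relative of epithelium, by 1.65 ± 0.061 (adjusted p = 1.02e-22). JAM2, a junctional adhesion molecule of endothelium, fell to 6 counts over the RN7SK-KO libraries, against 81 over the control libraries, while JAM3 rose by 1.04 on the log2 scale. F11R, the epithelial junctional adhesion molecule, did not pass, with a sign that turned under other scalings (57.6 CPM in RN7SK-KO and 57.7 CPM in control libraries). VCAM1 was not tested, with 2, 6 and 0 counts in RN7SK-KO and 9, 28 and 14 counts in control libraries.

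Cytoplasmic partners went both ways. Of 41 listed, 40 were tested: 13 rose, 23 fell and 4 did not pass (90% called, median log2 fold change -0.28). Over all tested genes 85% were called, 42% rising and 43% falling. The median size of the change in either direction was 0.72 (log2), against 0.65 over all tested genes. ZYX, zyxin of actin-linked adhesions, which binds the tail of ENG, fell to 80.9 ± 4.09 CPM in RN7SK-KO, against 538.6 ± 27.9 CPM in control libraries (adjusted p = 1.17e-31), and VCL, vinculin, fell by 1.75 ± 0.042 (adjusted p = 4.61e-28). The catenins that bind cadherin tails, CTNNA1, CTNNB1 and CTNND1, fell by 0.39, 0.34 and 0.64, and JUP, plakoglobin, rose by 0.81. The ezrin family that links ICAM tails to actin fell, EZR by 0.90, RDX by 0.87 and MSN by 0.22. SRC rose by 2.26 ± 0.045 (adjusted p = 1.25e-30). SMAD6, an inhibitor of BMP signalling, rose to 162.9 ± 4.96 CPM in RN7SK-KO, against 18.1 ± 0.543 CPM in control libraries (adjusted p = 2.19e-31), and SMAD1 and SMAD5, which carry that signal, fell by 0.88 and 0.37 in the count fit. SMAD1 had -0.26 with the length offset, and its deposited FPKM overlapped between the groups (6.40, 6.47 and 7.54 in RN7SK-KO, against 8.64, 7.88 and 7.42 in control libraries).

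Transcription factors known to act on endothelial genes or on ICAM1 moved both ways. Of 43 listed, 38 were tested: 15 rose, 17 fell and 6 did not pass (84.2% called, median log2 fold change -0.072). This is near the shares over all tested genes (85% called, 42% rising and 43% falling). ETS1, which binds the GGAA core capitalised in the promoters above, fell to 41.3 ± 1.84 CPM in RN7SK-KO, against 418.4 ± 1.16 CPM in control libraries (adjusted p = 6.27e-34). Of the other ETS factors tested, ELF1, ETS2 and ETV2 rose by 0.85, 0.30 and 1.54 (log2). ELK3 and GABPA fell by 1.23 and 0.35, and ELF2 did not pass. Whether ETS1 or another of these factors acts on those promoters in these cells was not tested. The endothelial ETS factors ERG and FLI1 were absent or nearly so, with 2 and 0 counts over the RN7SK-KO libraries and 0 and 0 over the control libraries. FOXC2 fell to 0.195 ± 0.0399 CPM in RN7SK-KO, against 19.5 ± 0.779 CPM in control libraries (log2 fold change -6.60, or -7.38 with the length offset, adjusted p = 1e-24 in the count fit), and KLF6 fell by 2.06 ± 0.05 (adjusted p = 3.34e-28). EPAS1, the hypoxia factor HIF-2 alpha, rose to 792 ± 20.1 CPM in RN7SK-KO, against 196.7 ± 12.2 CPM in control libraries (adjusted p = 5.92e-29). Of the NF-kB subunits, NFKB1, RELB and REL fell by 0.88, 0.49 and 0.41, and RELA (log2 fold change -0.077) and NFKB2 (-0.046, or 0.20 with the length offset) did not pass. IRF1 fell by 0.46.

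Other endothelial markers were mostly too low to test. Of 39 listed, 33 were in the tables and 10 were tested: 5 rose, 3 fell and 2 did not pass (80% called, median log2 fold change 0.48). Over all tested genes, 85% were called, with 42% rising and 43% falling. MMRN2, a vessel matrix protein, fell to 1, 1 and 2 counts in RN7SK-KO, against 150, 139 and 202 counts in control libraries, a summed ratio 111.6-fold lower (95% counting interval 43.3 to 411.3, adjusted p = 6.94e-19). PALMD rose by 2.91 ± 0.26 (adjusted p = 4.06e-12) and the peptide ligand gene APLN by 2.83 ± 0.28 (adjusted p = 2.55e-11), each with under 1 CPM in control libraries. VWF had 1, 3 and 4 counts in RN7SK-KO and 0 in each control library. The number of genes past both the threshold and a 2-fold change was 4 of the 10 tested markers, 14 of 27 ligands and counter-receptors, 14 of 22 co-receptors, 13 of 25 surface relatives, 11 of 40 partners and 15 of 38 factors, against 33.6% of all tested genes.

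**Figure D4:**
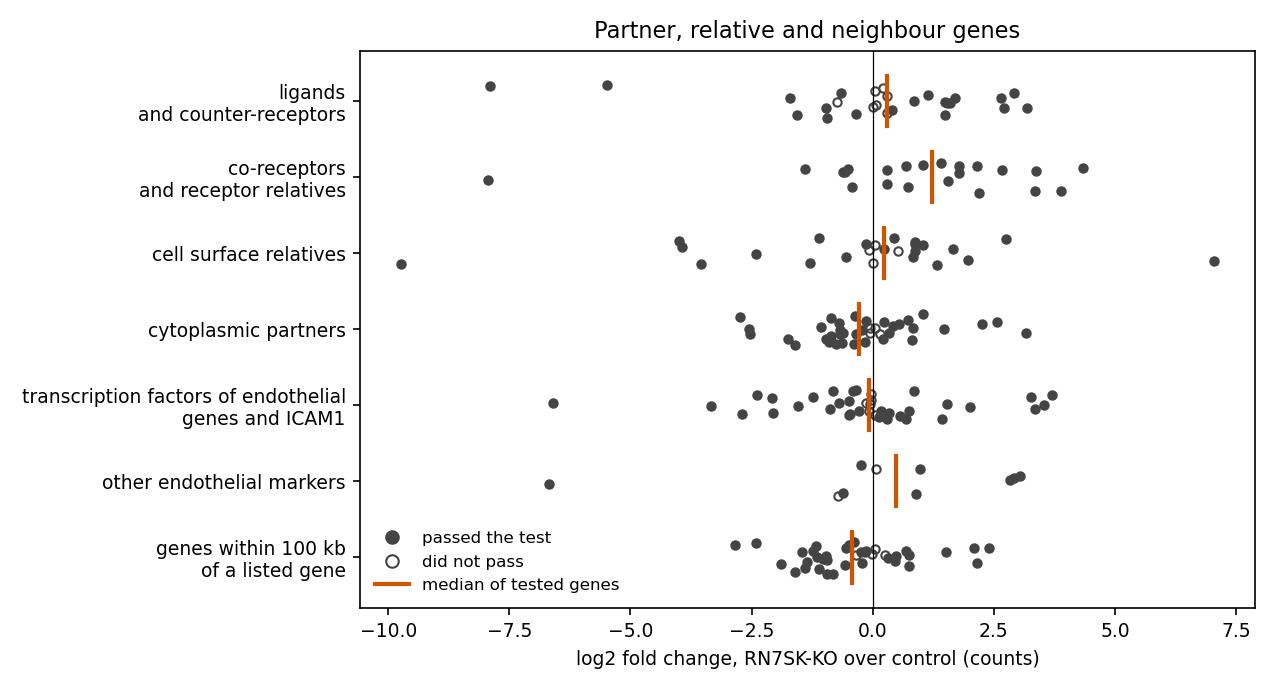
Log2 fold change of RN7SK-KO over control from counts (horizontal axis) for each tested gene of the 6 lists and of the genes within 100 kb; filled circles passed the test, open circles did not, orange bars are medians, and vertical scatter within a list has no meaning. The median is 1.22 for co-receptors and between -0.44 and 0.48 for the other lists, against -0.007 over all tested genes. Low genes enter these medians only through a group where they are higher.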

How the data were processed

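The labels' protocols describe TRIzol extraction and an mRNA library kit. The submitters' processing notes list HISAT2 2.2.1.0, Trimmomatic 0.36 and FastQC 0.11.5 without their roles, and GRCh38 as the build. Read counter, annotation and strand setting: not given in the sources used here. Reads of overlapping genes could therefore be shared. For each library the authors deposited whole-number read counts per gene symbol and FPKM (fragments per length and library size) of the same 16779 genes. Gene lengths recovered from count and FPKM agreed within 1% between the groups for 32.3% of 14582 genes.

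RN7SK-KO was compared with control on counts with edgeR 4.0.16 (R 4.3.3), after filterByExpr and TMM scaling (trimmed mean of M values), by glmQLFit (robust) and a two-sided glmQLFTest. Benjamini-Hochberg adjustment ran over all 12929 genes that passed the filter, and 0.05 was the limit for a call. Every adjusted p printed is from this test unless another is named. CPM carry the same scaling. Libraries of 1 group differed by more than counting noise (chi-square over its degrees of freedom, 1.73 to 7.72). The labels do not say whether replicates were separate cultures, so p-values measure the spread between these libraries. Counting intervals are exact, at 95%, and cover counting error only, as does the floor of 3 counts over a group. The fit was tested on simulated counts with 200 changed genes. It called 100%, 98.6% and 89.6% of log2 changes of 2, 1 and 0.5, and 4.5% of its calls were false. In the data 85% of genes were called, so the simulation cannot check scaling or error rates where most genes change.

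The 10 genes and all gene lists were chosen with earlier results of these data known, so the 10 genes were described without a test. Named were these 10, CDKN2A, up to 4 genes of each list by smallest p, the nearest tested neighbour on each side within 100 kb, and 2 genes of like profile for each of the 10 past the filter; other genes were chosen after their values were seen. Alternatives were other scalings and filters, DESeq2 1.42.0, limma 3.58.1 on FPKM with a pseudocount of 0.1 or 1 (log2 scale), a replicate block, recovered lengths as an offset, a 2-fold threshold and leaving out each library. Promoter sequences and gene coordinates are from RefSeq on GRCh38.p14. Of the tables' symbols, 16495 matched its gene table directly and 222 by synonym. Figures were drawn in Python 3.11.15.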

Additional observations from a re-analysis of the deposited data

How the results depend on the processing

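Requiring a change of over 2-fold (edgeR glmTreat) left 3558 of 10992 called genes, and 10 ligands and counter-receptors, 12 co-receptors, 12 surface relatives, 9 cytoplasmic partners, 14 transcription factors, 4 other endothelial markers and 13 genes within 100 kb. All other planned settings kept each count within 1.5 times its main value, with 10697 to 11132 genes called when 1 library was left out. Replicate numbers did not pair the libraries (correlation of same-numbered deviations -0.0248 to 0.018); with the replicate block 10910 genes were called, and the list counts moved by at most 1. The direction of MRPL4 reversed to a log2 fold change of 0.30 on log2(FPKM + 0.1), 0.29 on log2(FPKM + 1) and 0.28 with the length offset, where its recovered lengths enter, and CFAP57, which had not passed, ranged from -0.055 to 0.59 when 1 library was left out (-0.055 without control replicate 2). The median shift over all genes was 0.0113 (log2) with DESeq2 size factors and 0.0251 with library size only. It was 0.0474 on log2(FPKM + 0.1) and 0.0553 on log2(FPKM + 1), fits that differ in more than scaling. With 1 library left out, mean CPM was 38.1- to 41.6-fold lower for ICAM1, 36.0- to 38.7-fold for ESAM and 4.97- to 6.34-fold for CDH5; that of KDR, whose leave-one-out values were added after seeing the data, ranged over log2 values of 2.06 to 4.61. Counts of 0 to 19 per library limit what can be said of ICAM2, PECAM1, TEK, TIE1 and KDR.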

Other observations

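CD99, a cell surface protein that works with PECAM1 when leukocytes cross the endothelium, was chosen after its values were seen. It had 1, 0 and 0 counts in RN7SK-KO, against 402, 172 and 699 counts in control libraries, so its control libraries differed from each other far more than those of ESAM or ENG. NCAM1, a neural adhesion molecule, had 64, 52 and 51 counts in RN7SK-KO, against 1, 0 and 0 counts in control libraries. PROX1, the lymphatic endothelial factor, and SOX17, an arterial one, rose to 6.23 and 3.27 CPM in RN7SK-KO, against 0.528 and 0.246 CPM in control libraries, whereas SOX18 and SOX7 fell to 0.317 and 0.347 CPM in RN7SK-KO, against 2.04 and 1.85 CPM in control libraries. All 6 were also chosen after their values were seen.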
